A study of Mus musculus with 12 samples.

Results

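Complement genes were followed in mouse vessels over a week of angiotensin II. The members are 9 genes chosen by name: the C1q chains C1qa, C1qb and C1qc, the components C3, C4b and Cfb, the C1 inhibitor Serping1, and the anaphylatoxin receptors C3ar1 and C5ar1. A member was measured where the array annotation holds a transcript cluster (the array's summary feature for a gene) whose single gene is that member, and the cluster with the brightest mean over all arrays was taken. This gave 8 of the 9 members among 30747 genes with a cluster, and all 8 were among the 22111 genes bright enough to be tested. C3, the central component, was not analysed here. The members were chosen with earlier results of these data known.

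Total RNA from vessels of male C57BL/6 mice aged 8 to 10 weeks was hybridised to 12 Affymetrix arrays. Angiotensin II, the vasoconstrictor peptide hormone of the renin-angiotensin system, was infused from implanted osmotic pumps at 1500 ng/kg/min. The groups were untreated mice (day 0) and mice infused for 1, 3 or 7 days, with 3 arrays each that the labels describe as biological replicates. A pump with vehicle alone at day 0, the vessel taken, the number of animals behind an array and any date or batch of the arrays were not given in the sources used here. Surgery for the pump and angiotensin II therefore cannot be told apart. The RNA is that of a whole tissue, so more cells of a type and more RNA per cell cannot be told apart in any result.

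Complement is a set of plasma and cell surface proteins that mark microbes, immune complexes and dying cells for uptake. C1q, built from 3 kinds of chain, recognises the target and starts the classical pathway through the proteases C1r and C1s, which cleave C4 and C2. Factor B, the product of Cfb, carries the protease of the alternative pathway, and both pathways meet at C3. C1 inhibitor blocks C1r and C1s, and the fragments C3a and C5a act on myeloid and other cells through C3ar1 and C5ar1. Macrophages and dendritic cells are the main source of C1q, whereas plasma C3, C4 and factor B come mostly from hepatocytes and are also made by fibroblasts and other cells in tissues.

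The RefSeq table of gene start regions (build GRCm38.p6, 250 bases before to 50 after the annotated start) held 4 of the 8 measured members. They are shown because these 4 genes were all called higher at day 7, and PU.1, a transcription factor of myeloid cells, is known to act at many genes of macrophages and so was searched for. Sequences run 5′ to 3′ on the gene's strand, and capitals mark GAGGAA, the PU.1 core, or its reverse complement.
C1qb, chr4:136886151-136886450, minus strand: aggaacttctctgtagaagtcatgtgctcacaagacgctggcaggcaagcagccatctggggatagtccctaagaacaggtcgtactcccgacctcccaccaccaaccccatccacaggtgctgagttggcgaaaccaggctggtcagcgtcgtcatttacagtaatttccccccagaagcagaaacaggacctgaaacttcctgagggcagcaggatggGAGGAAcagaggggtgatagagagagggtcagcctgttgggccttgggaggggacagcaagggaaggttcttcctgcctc
C1qc, chr4:136892865-136893164, minus strand: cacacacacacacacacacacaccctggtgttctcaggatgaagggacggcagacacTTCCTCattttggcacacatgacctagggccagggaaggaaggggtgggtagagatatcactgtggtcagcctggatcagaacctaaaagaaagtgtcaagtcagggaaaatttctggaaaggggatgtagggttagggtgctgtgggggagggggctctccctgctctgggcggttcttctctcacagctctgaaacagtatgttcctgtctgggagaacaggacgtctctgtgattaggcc
C3ar1, chr6:122856108-122856407, minus strand: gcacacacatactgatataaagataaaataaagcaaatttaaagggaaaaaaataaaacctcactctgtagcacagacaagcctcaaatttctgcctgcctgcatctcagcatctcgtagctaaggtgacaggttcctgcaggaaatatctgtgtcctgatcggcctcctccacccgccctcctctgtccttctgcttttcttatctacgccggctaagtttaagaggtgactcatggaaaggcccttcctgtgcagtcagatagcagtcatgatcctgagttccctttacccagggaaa
C5ar1, chr7:16259289-16259588, minus strand: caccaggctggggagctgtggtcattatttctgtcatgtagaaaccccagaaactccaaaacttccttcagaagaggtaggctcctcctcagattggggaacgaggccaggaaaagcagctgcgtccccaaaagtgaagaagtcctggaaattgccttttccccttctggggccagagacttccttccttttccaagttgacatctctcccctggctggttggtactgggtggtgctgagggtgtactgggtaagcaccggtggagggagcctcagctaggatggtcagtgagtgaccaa
GAGGAA was searched on both strands, and 28.3% of all 32851 start regions of this length hold it. C1qb has it on the gene's strand at bases -30 to -25 from the start, and C1qc has the reverse complement TTCCTC at -193 to -188. The regions of C3ar1 and C5ar1 do not hold these letters. The STAT motif TTCNNNGAA, present in 8.3% of all regions, and the interferon response motif (GAAA, any 2 bases, GAAA), present in 3.44%, have no match on either strand in any of the 4 regions. These matches describe letters and are not shown to be bound.

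Complement members called in infused vessels were all higher than at day 0, few at day 1 and most at day 7. Members that passed the test (limma, Benjamini-Hochberg adjusted p under 0.05 over all 22111 genes) numbered 2, 4 and 7 of 8 on days 1, 3 and 7. C5ar1 is in these counts and in the array counts and medians below. It was tested only because its treated arrays reached the brightness filter of 5.25, which none of its day 0 arrays did. Its calls at days 3 and 7 are therefore no independent support. Of all tested genes, 1.98% were called higher at day 1, 4.58% at day 3 and 12.1% at day 7. C1qb and C1qc were called on all 3 days, C1qa and C5ar1 at days 3 and 7, and C4b, Cfb and C3ar1 at day 7. Serping1 was called on no day. With 1 array left out at a time the counts ranged from 0 to 4, 0 to 7 and 4 to 7: 0 members were called at day 1 without any 1 of the day 0 arrays, 0 at day 3 without day 3 replicate 2 or 3, and 4 at day 7 without day 0 replicate 1. Counted by arrays alone, 8 members at day 1, 8 at day 3 and 7 at day 7 had all 3 treated arrays above all 3 day 0 arrays, against 11.8%, 23.3% and 26.7% of all tested genes. The members' median log2 change was 1.22, 1.34 and 1.59 at days 1, 3 and 7, and that of all tested genes was 0.01, 0.08 and 0.09. All 3 comparisons share the day 0 arrays, so they do not support each other independently. Because the members were chosen with earlier results of these data known, the shares of all genes are no test of the list.

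**Figure D1:**
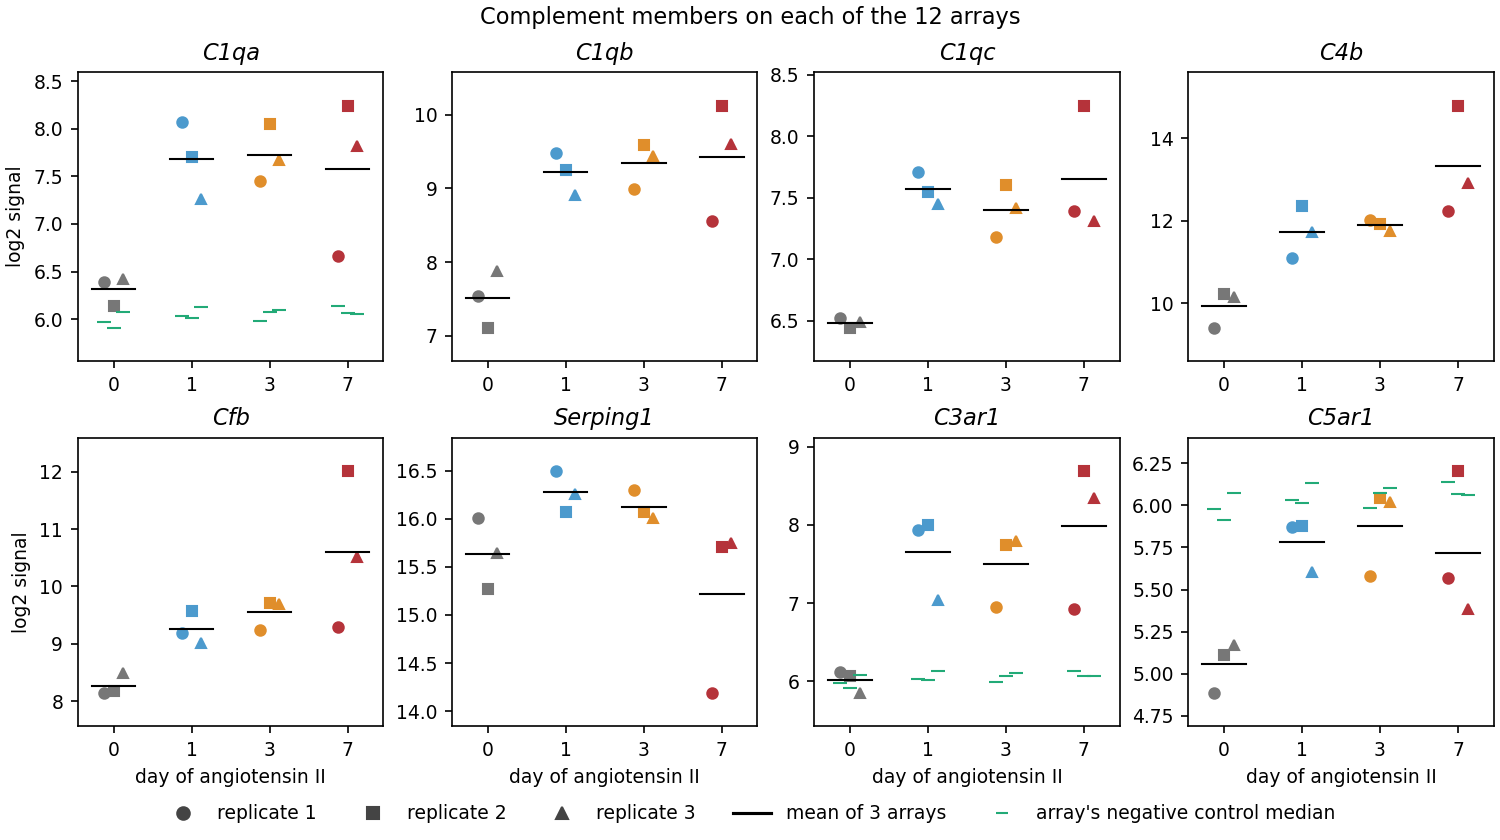
Log2 signal of each measured complement member on the 12 arrays, by day of angiotensin II, with each panel on its own vertical scale. Symbols are arrays by replicate, black lines are means of 3 arrays, and short green lines are each array's median of negative control features where it lies in the plotted range. Treated arrays lie above the day 0 arrays in every panel except Serping1 at day 7, and C5ar1 lies mostly under the negative control median.

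Control features on the arrays also differed between the days. The median of positive minus negative control features, a sign of signal over background, had a day 0 mean of 2.59 ± 0.05 log2 units, a day 1 mean of 2.25 ± 0.29, a day 3 mean of 1.98 ± 0.14 and a day 7 mean of 1.76 ± 0.49 (SD over 3 arrays). Day 7 replicate 1, with the lowest value of 1.20, was also the lowest day 7 array in 6 of the 8 members. With this difference as a covariate the members called numbered 1 at day 1, 0 at day 3 and 2 at day 7. Its part in the results was not tested. Replicate arrays correlated with each other at Pearson r of 0.969 to 0.993.

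C1qb and C1qc rose on every day of infusion, and C1qa at days 3 and 7. C1qa, the A chain, had a log2 signal of 6.39, 6.14 and 6.42 at day 0, 8.07, 7.70 and 7.26 at day 1, 7.45, 8.05 and 7.67 at day 3, and 6.66, 8.24 and 7.82 at day 7. Every treated array of C1qa lay above the day 0 arrays, by the smallest margin on day 7 replicate 1. C1qb, the B chain, had 7.53, 7.11 and 7.88 at day 0, 9.48, 9.25 and 8.92 at day 1, 8.995, 9.59 and 9.44 at day 3, and 8.55, 10.12 and 9.60 at day 7. C1qc, the C chain, had 6.52, 6.44 and 6.49 at day 0, 7.71, 7.55 and 7.45 at day 1, 7.18, 7.60 and 7.42 at day 3, and 7.39, 8.25 and 7.31 at day 7. No treated array of C1qb or C1qc reached down to the day 0 arrays. At day 0 C1qa lay 0.23 to 0.42 and C1qc 0.41 to 0.54 log2 units above the arrays' negative control medians, so background may limit the size of their changes. The fold change of C1qb against day 0 was 3.27 at day 1, 3.56 at day 3 and 3.78 at day 7, with log2 changes of 1.71, 1.83 and 1.92 (SE 0.37; limma adjusted p = 0.0405, 0.0164 and 0.00783). C1qc rose by 1.09, 0.92 and 1.17 log2 units (SE 0.22; limma adjusted p = 0.0317, 0.0300 and 0.00739). C1qa changed by 1.36 log2 units at day 1, which was not called (limma adjusted p = 0.0813), and rose by 1.41 and 1.26 at days 3 and 7 (SE 0.37; adjusted p = 0.0389 and 0.0366). Of 22 alternative analyses, the calls of C1qb were lost in 12, 5 and 1 at days 1, 3 and 7, those of C1qc in 9, 8 and 1, and those of C1qa in 12 at day 3 and 12 at day 7.

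C4b and Cfb, which lie in the same stretch of the major histocompatibility complex, were highest at day 7. C4b, the C4 component of the classical pathway, had a log2 signal of 9.40, 10.23 and 10.15 at day 0, 11.09, 12.37 and 11.74 at day 1, 12.02, 11.92 and 11.74 at day 3, and 12.24, 14.80 and 12.93 at day 7. Its treated arrays all lay above day 0, and the 3 day 7 arrays also lay above the 3 day 3 arrays, as did those of 7.06% of all tested genes. Against day 0 it rose 10.5-fold at day 7, a log2 change of 3.40 with a 95% interval of 2.10 to 4.70 (limma adjusted p = 0.00488). That call held in all 22 alternatives, with log2 changes of 2.66 to 4.72. At days 1 and 3 its log2 changes of 1.81 and 1.97 (SE 0.58) were not called (adjusted p = 0.135 and 0.0581). C4a, a near-identical neighbouring copy of C4b, rose by 2.19 ± 0.34 log2 units at day 7 (SE; adjusted p = 0.00328), and how far probes of these copies read each other's transcripts is uncertain.

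Cfb had a log2 signal of 8.14, 8.17 and 8.49 at day 0, 9.19, 9.56 and 9.02 at day 1, 9.24, 9.71 and 9.70 at day 3, and 9.29, 12.01 and 10.51 at day 7. The day 7 arrays ranged more widely than those of the other days, and their lowest lay among the day 1 and day 3 arrays. Against day 0 Cfb rose 5.06-fold at day 7, a log2 change of 2.34 with a 95% interval of 1.13 to 3.55 (limma adjusted p = 0.0157). Without day 7 replicate 2 the log2 change was 1.63, still called, and without day 7 replicate 1 it was 3.00. Its log2 changes of 0.99 at day 1 and 1.28 at day 3 (SE 0.54) were not called (adjusted p = 0.432 and 0.156).

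Serping1, which encodes the inhibitor of C1r and C1s and of plasma kallikrein, was the one measured member not called on any day. Its log2 signal was 16.00, 15.27 and 15.64 at day 0, 16.50, 16.07 and 16.26 at day 1, 16.29, 16.07 and 16.01 at day 3, and 14.19, 15.70 and 15.75 at day 7. The day 1 and day 3 arrays all lay above day 0, and the day 7 arrays overlapped it. Its log2 change against day 0 was 0.64 at day 1 (95% interval -0.21 to 1.48), 0.49 at day 3 (-0.36 to 1.33) and -0.42 at day 7 (-1.27 to 0.42), with limma adjusted p = 0.484, 0.406 and 0.400. The sign at day 7 rested on day 7 replicate 1, without which the change was 0.09. Under quantile normalization the day 3 change was -0.21.

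Both anaphylatoxin receptors passed the test at day 7, and C5ar1 also at day 3. C3ar1, the receptor of C3a, had a log2 signal of 6.12, 6.07 and 5.85 at day 0, 7.93, 8.00 and 7.04 at day 1, 6.95, 7.74 and 7.79 at day 3, and 6.93, 8.69 and 8.35 at day 7. Treated arrays of C3ar1 all lay above day 0, while the day 0 arrays lay near their negative control medians, 1 of 3 under it, so no fold is given. In log2 signal C3ar1 rose by 1.97 at day 7 (SE 0.45; limma adjusted p = 0.0146), and its log2 changes of 1.64 and 1.48 at days 1 and 3 were not called (adjusted p = 0.0818 and 0.0626).

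C5ar1, the receptor of C5a, had a log2 signal of 4.88, 5.11 and 5.17 at day 0, 5.87, 5.88 and 5.61 at day 1, 5.58, 6.04 and 6.02 at day 3, and 5.57, 6.21 and 5.39 at day 7. Its treated arrays all lay above day 0, yet 3 of 3 arrays at days 0, 1 and 3 and 2 of 3 at day 7 were under their negative control median, so these readings give no measure of how far its transcript changed. The test of the readings called day 3 and day 7 higher (limma adjusted p = 0.0355 and 0.0460) and not day 1 (adjusted p = 0.0989). Those calls of C5ar1 were lost in 10 and 16 of the 21 alternatives that gave it a value.

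**Figure D2:**
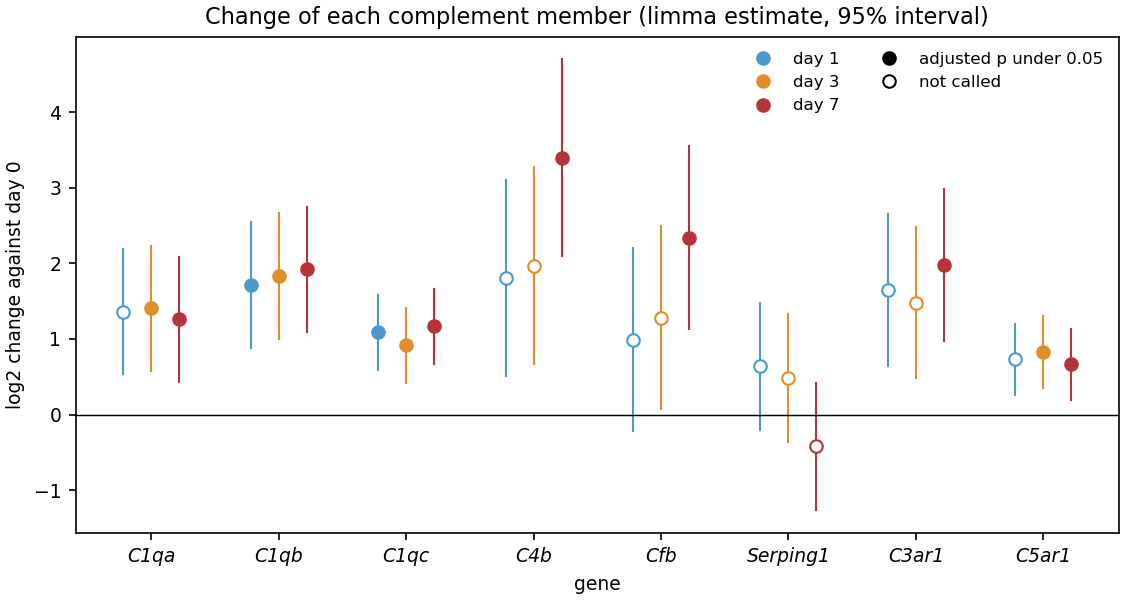
Log2 change of each measured member against day 0, with limma's 95% interval as vertical lines. Colours give the day and filled points an adjusted p under 0.05. The C1q chains and receptors have similar changes on the 3 days, C4b and Cfb have their highest points at day 7 (3.40 and 2.34), and Serping1 crosses 0 at day 7 (-0.42). The points of C5ar1 are differences between readings mostly under the negative control median.

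Between the infused groups no member was called. The share of all tested genes called in either direction was 0% for day 3 against day 1, 0.267% for day 7 against day 3 and 4.83% for day 7 against day 1. At an unadjusted limma p under 0.05, 0, 2 and 3 members passed in these comparisons, beside 1778, 2868 and 6862 of all 22111 tested genes. C4b at day 7 exceeded day 3 by 1.43 log2 units (95% interval 0.13 to 2.73; limma adjusted p = 0.338) and day 1 by 1.59 (adjusted p = 0.108). Cfb differed by 1.06 between days 7 and 3 (adjusted p = 0.451) and by 1.35 between days 7 and 1 (adjusted p = 0.130). Serping1 was 0.91 log2 units lower in day 7 arrays than in day 3 arrays (difference -0.91, 95% interval -1.75 to -0.06; adjusted p = 0.350) and differed by -1.06 from day 1 (adjusted p = 0.103), with all day 7 arrays below in both comparisons, as in 7.99% and 11.3% of all tested genes. Day 7 minus day 3 was -0.15 for C1qa, 0.09 for C1qb, 0.25 for C1qc, 0.49 for C3ar1 and -0.16 for C5ar1. The 95% interval of this difference was -0.98 to 0.68 for C1qa and -0.51 to 1.50 for C3ar1, so the arrays do not resolve an order of the infused days for these genes.

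The other complement genes were called in both directions. Of 47 listed, 45 had a cluster and 32 were bright enough to be tested, and 5 were higher and 2 lower at day 1, 8 higher and 3 lower at day 3, and 11 higher and 4 lower at day 7. Of all tested genes 1.98%, 4.58% and 12.1% were called higher on these days and 1.63%, 7.11% and 13.2% lower. The median log2 change of the 32 genes was 0.12, 0.26 and 0.40. Among 6 classical pathway genes, 0, 2 and 3 were called, all higher. C1s1 and C1s2, the mouse copies of the C1s protease, rose at day 7 by 1.16 and 1.18 log2 units (limma adjusted p = 0.0109 and 0.00472), and C1s2 also at day 3 by 0.87 (adjusted p = 0.0245). C1ra and C1rb, the copies of C1r, had day 7 log2 changes of -0.16 and -0.34, not called. C2, the protease partner of C4, had 0.17, 0.04 and 0.56 on the 3 days, none called. Copies with closely related sequence (C1s1 and C1s2, C1ra and C1rb, Cd55 and Cd55b) may share probe signal.

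Properdin (Cfp), which stabilises the alternative pathway convertase, was the one gene of its list with a cluster and rose on all 3 days, by 0.74, 0.66 and 0.60 log2 units (limma adjusted p = 0.0140, 0.00993 and 0.00764). Its arrays had 7.23, 7.29 and 7.38 at day 0, 7.98, 8.08 and 8.06 at day 1, 7.88, 8.10 and 7.89 at day 3, and 7.66, 7.91 and 8.12 at day 7, with no overlap with day 0. In the lectin pathway list, where 5 of 9 were tested, ficolin A (Fcna) rose by 0.67 and 0.84 at days 1 and 3 and was not called at day 7 (0.17), from day 0 arrays near or under the negative control median. Colec12, a scavenger receptor collectin, fell by 1.07, 1.32 and 2.47 log2 units (adjusted p = 0.0454, 0.0119 and 0.000824), and its day 1 call held in 5 of 22 alternatives. Colec10 was called higher at day 7 (adjusted p = 0.0198) on readings that were under the negative control median on every array of every day.

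Of the terminal pathway genes, 3 of 7 were tested and C7 was the one called. C7, a component of the membrane attack complex, had a log2 signal of 15.33, 12.49 and 14.87 at day 0, 13.63, 14.52 and 14.80 at day 1, 15.69, 14.02 and 13.66 at day 3, and 10.11, 9.39 and 11.65 at day 7. All day 7 arrays lay below the arrays of every other day, and C7 fell by 3.85 ± 0.86 log2 units against day 0 (SE; limma adjusted p = 0.0136). Hc, the mouse C5 gene that encodes the source of C5a, had a cluster under the negative control median on every array and was not tested. Cfd, factor D of the alternative pathway, was not analysed here.

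Of 8 regulators tested, 0, 0 and 2 were called higher and 1, 2 and 1 lower at days 1, 3 and 7. The shares of all tested genes were 1.98%, 4.58% and 12.1% higher and 1.63%, 7.11% and 13.2% lower. Cd55 and Cd55b, which encode decay-accelerating factor of the cell surface, rose at day 7 by 1.27 and 1.05 log2 units (adjusted p = 0.0134 and 0.00544). Cd59a, which blocks assembly of the membrane attack complex, fell by 1.09 at day 3 and 1.26 at day 7 (adjusted p = 0.00766 and 0.00224). Clusterin (Clu), a fluid-phase inhibitor of that complex, had a log2 signal of 11.31, 11.55 and 11.46 at day 0, 9.55, 9.71 and 10.06 at day 1, 8.89, 9.79 and 9.65 at day 3, and 11.29, 12.31 and 11.34 at day 7. It fell by 1.67 at day 1 and 1.99 at day 3 (SE 0.31; adjusted p = 0.0234 and 0.00644) and was not called at day 7 (0.21), where its arrays overlapped day 0.

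Among other receptors, 3 higher, 4 higher, and 4 higher with 1 lower were called of 9 tested on the 3 days. Of all tested genes 1.98%, 4.58% and 12.1% were called higher and 1.63%, 7.11% and 13.2% lower. Vsig4 and C5ar2, which are in these counts, reached the brightness filter of 5.25 on treated arrays only. Itgam, the alpha chain of complement receptor 3, rose by 1.83, 1.90 and 1.41 log2 units (SE 0.30; limma adjusted p = 0.0163, 0.00748 and 0.0119). Its beta chain Itgb2 rose by 1.18, 1.22 and 1.08 (adjusted p = 0.0274, 0.0129 and 0.0114). The day 0 arrays of Itgb2 lay near the negative control median, and those of Itgam 0.32 to 0.35 log2 units above it. Itgax, the alpha chain of complement receptor 4, had 0.07 and 0.20 at days 1 and 3 and was called higher at day 7 by 0.67 (adjusted p = 0.00253), with 3 of 3 arrays at days 0, 1 and 3 and 1 of 3 at day 7 under the negative control median. Vsig4, a macrophage receptor for C3b fragments, rose by 1.41 and 1.30 at days 1 and 3 and was not called at day 7 (0.51, adjusted p = 0.184), with all day 0 and day 7 arrays, 1 of 3 at day 1 and 2 of 3 at day 3 under the negative control median. C5ar2, the second C5a receptor, was called higher at days 3 and 7 (adjusted p = 0.0463 and 0.0116) on readings under the negative control median on every array, and its day 3 call was lost in 15 of 21 alternatives. C1qbp, a mitochondrial protein that binds C1q, fell by 0.25 at day 7 (adjusted p = 0.0344).

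**Figure D3:**
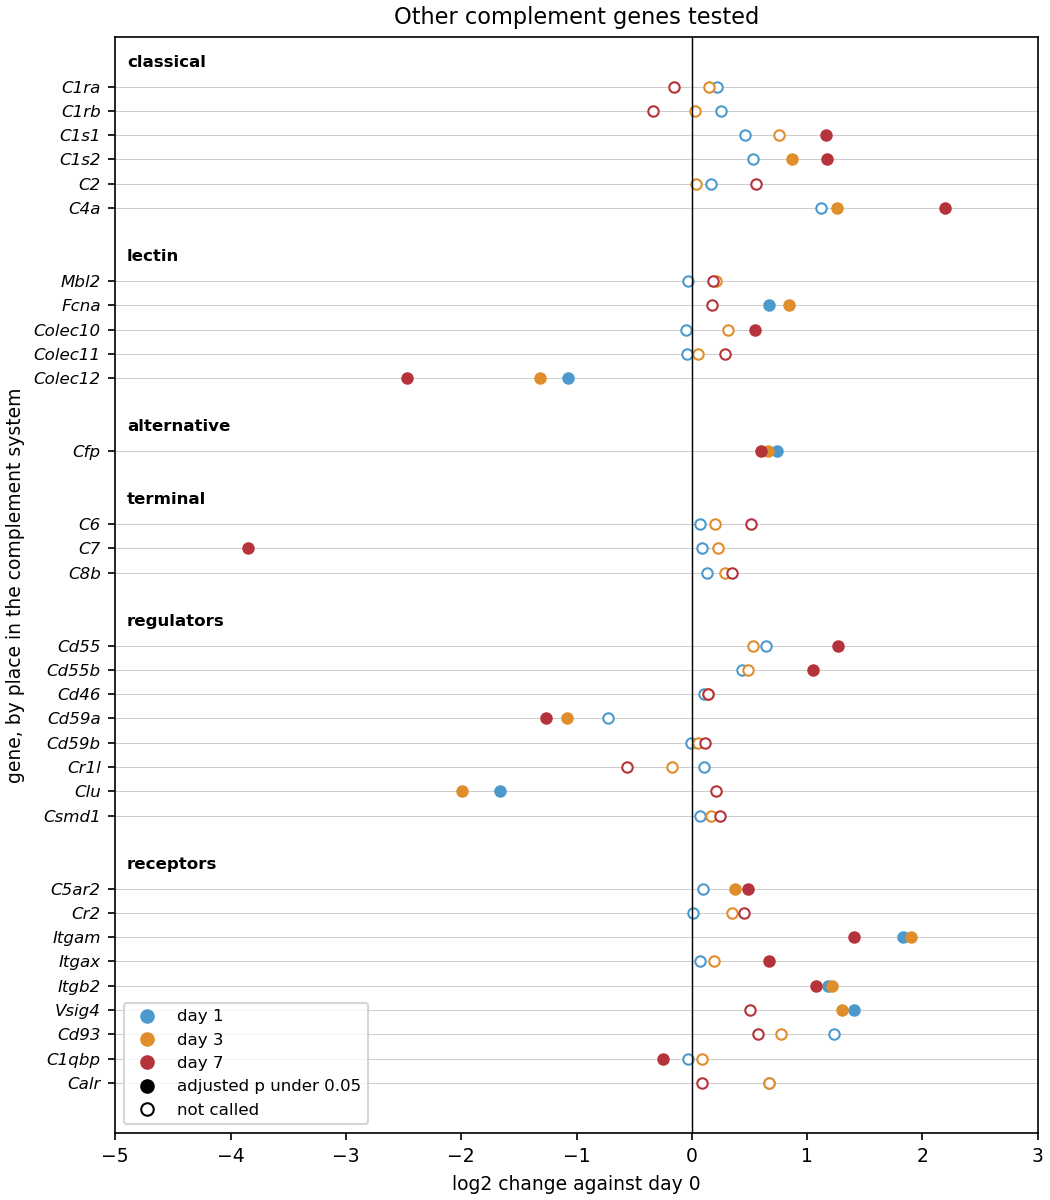
Log2 change against day 0 of the 32 other complement genes tested, grouped by their place in the system. Colours give the day and filled points an adjusted p under 0.05. C7 (-3.85) and Colec12 (-2.47) lie lowest at day 7, and C4a (2.19) lies highest.

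Marker lists of cell types are given beside these genes. Of all tested genes, 1.98%, 4.58% and 12.1% were called higher and 1.63%, 7.11% and 13.2% lower at days 1, 3 and 7. Of 15 macrophage markers, 7, 12 and 12 were called higher on days 1, 3 and 7 and 0 lower, with median log2 changes of 0.93, 1.14 and 1.13. By arrays alone, 14 markers had all 3 treated arrays above all 3 day 0 arrays at day 3 and 14 at day 7. In the other direction, 1 marker at day 3 and 1 at day 7 had all 3 below. The arrays' mean over this list lay between 7.04 and 7.29 at day 0, 8.16 and 8.52 at day 1, 8.22 and 8.67 at day 3, and 7.86 and 8.78 at day 7. Adgre1, the marker F4/80 of macrophages, rose by 1.48, 1.41 and 1.55 log2 units. Mrc1, a mannose receptor of resident macrophages, rose by 3.50 and 3.54 and was not called at day 7 (1.64, adjusted p = 0.0509). At day 7 the mean of the 3 C1q chains exceeded its day 0 mean by 0.77, 2.10 and 1.47 in replicates 1, 2 and 3, and the macrophage list by 0.67, 1.58 and 1.21. The part of macrophage number in the change of the C1q chains and receptors was not tested.

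Of 9 hepatocyte markers with a cluster, 8 were under the negative control median on all arrays of every day. Among them was the list's defining gene Alb, whose means of 3 arrays per day lay between 4.92 and 5.50. At day 7, 2 of the 3 hepatocyte markers tested were called higher, Alb by 0.43 and Fgb by 0.41 log2 units, both on readings under the negative control median. Ahsg, also tested, had a day 0 mean of 6.66 and a day 7 change of -0.31, not called. All 8 T cell markers were under the negative control median on every day too, as were 8, 8, 6 and 6 of 10 neutrophil markers on days 0, 1, 3 and 7. Of 6 neutrophil markers tested, 0, 2 and 2 were called higher at days 1, 3 and 7. The shares of all tested genes on these days were 1.98%, 4.58% and 12.1% higher and 1.63%, 7.11% and 13.2% lower. Fibroblast markers, of which 9 were tested, had 0, 2 and 4 called higher and 0, 0 and 1 lower, with medians of 0.50, 0.41 and 1.30. Of 16 interferon-induced genes tested, 0 were called at days 1 and 3 and 11 were higher at day 7, with a median of 0.90, and Irf7 rose by 2.15 (adjusted p = 0.0115). On the day 7 arrays 1, 2 and 3 the mean of C4b and Cfb exceeded its day 0 mean by 1.67, 4.31 and 2.62, the interferon list by 0.30, 1.70 and 1.50, and the fibroblast list by 0.45, 1.33 and 1.18. Acute phase and cytokine genes had 2, 3 and 6 of 12 higher and 0, 1 and 0 lower. Their part in the change of C4b and Cfb was not tested.

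The labelled tissue was matched by smooth muscle markers, whose array mean lay between 14.24 and 14.37 at day 0. At days 1, 3 and 7, 1, 4 and 8 of the 9 were lower, with median log2 changes of -1.74, -2.93 and -4.15, beside all the complement values above. White adipocyte markers, with an array mean of 11.47 to 11.67 at day 0, had 0, 0 and 1 of 8 higher and 0, 1 and 0 lower. Brown adipocyte markers had 1, 1 and 0 of 7 tested higher and 2, 3 and 2 lower. With the mean over both adipocyte lists as a covariate, 0, 0 and 5 members were called at days 1, 3 and 7. The same fit called 0, 13 and 2837 of all 22111 genes. Endothelial markers had 0, 1 and 2 of 9 lower, mast cell markers 0, 1 and 3 of 6 lower and 0, 1 and 0 higher, and 4 of 5 cardiac muscle markers were higher at day 7. The shares of all tested genes were 1.98%, 4.58% and 12.1% higher and 1.63%, 7.11% and 13.2% lower at days 1, 3 and 7. Small counts in lists this short are not read as a change of a cell type.

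**Figure D4:**
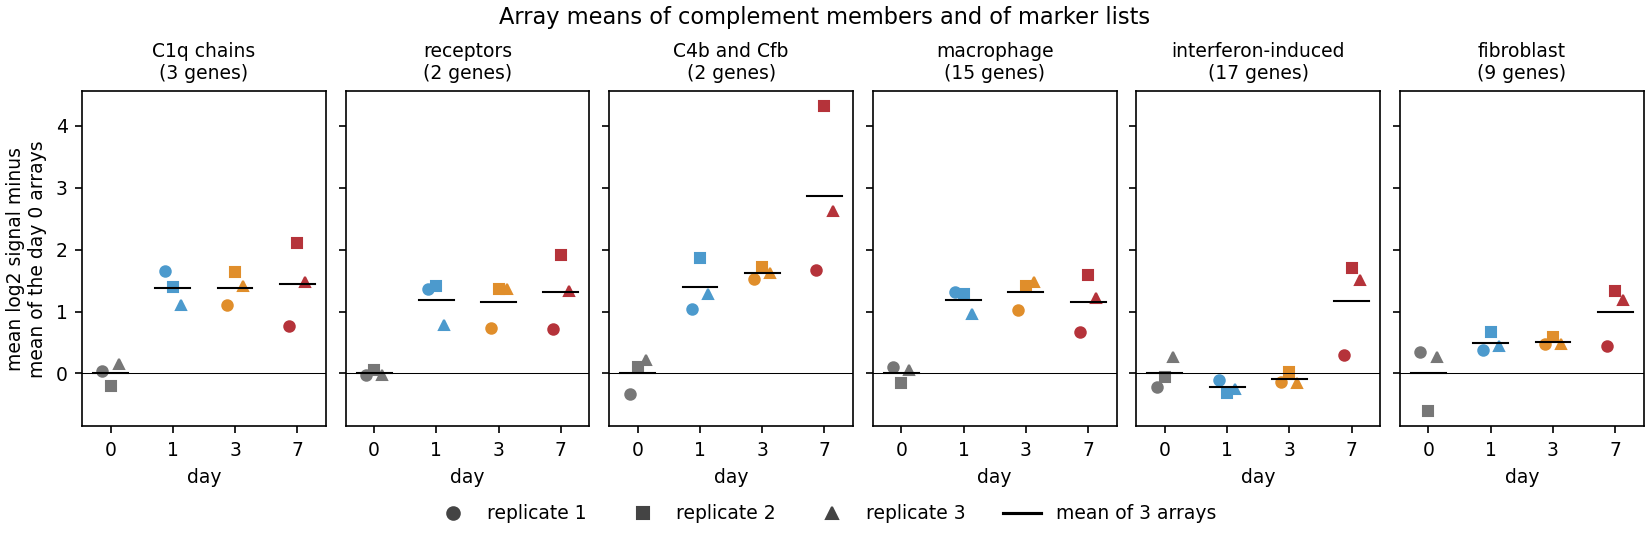
Mean log2 signal of C1q chains, receptors, C4b with Cfb, and 3 marker lists on each array, minus the mean of the day 0 arrays. Symbols are arrays by replicate and lines are means of 3 arrays. C1q chains, receptors, C4b with Cfb, and macrophage and fibroblast markers lie above all day 0 arrays from day 1. For fibroblast markers the highest day 0 array lies at 0.35 and the lowest treated array at 0.38. Interferon-induced genes lie above all day 0 arrays at day 7 alone, at 0.30, 1.70 and 1.50 over the day 0 mean. Their highest day 0 array lies at 0.27. Day 7 replicate 1 is the lowest day 7 array in every panel.

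Genes outside the members were ranked by Pearson r over the 12 arrays with each group's mean, among 14983 tested genes with established symbols. The arrays share group and day, so r describes these arrays and has no test. For the C1q chains the highest were Lcp1 (0.978), Laptm5 (0.977), Lcp2 (0.977), Fcgr2b (0.977) and Nckap1l (0.976), which are expressed in leukocytes. For the receptors they were Adgre1 (0.981), Lcp1 (0.980), Tmem106a (0.980), Plek (0.977) and the collagen gene Col12a1 (0.976). For the mean of C4b, Cfb and Serping1 they were Rasa3 (0.970), Pnp (0.970), the lysosomal protease gene Ctss (0.970), Runx1 (0.959) and Ly86 (0.955). Ctss rose by 4.03 log2 units at day 7 (limma adjusted p = 0.00642) and Fcgr2b, the inhibitory Fc receptor, by 2.35 (adjusted p = 0.00573).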

How the data were processed

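RNA of 12 arrays was measured, 3 for each of day 0, 1, 3 and 7. The authors deposited log2 signals per transcript cluster, for which the submitters' processing notes name Affymetrix Expression Console. Its version, background correction, normalization and genome build were not given in the sources used here. An earlier mouse array is named in the labels, but the identifiers are transcript clusters of another Affymetrix design, so the deposited identifiers and their annotation were used. Of 65956 clusters, 31388 had 1 gene, 1362 several and 33206 none, and the last 2 kinds were left out. The scale ends at 19.93, which 581 features reach on all arrays, and no complement member reached it.

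Values were used as deposited. For each of 30747 genes the brightest cluster was taken, and the 22111 genes with at least 3 of 12 arrays at or over the 40th percentile of clusters (5.25) were tested with limma 3.58.1 in R 4.3.3: a mean per group, all 12 arrays, empirical Bayes with no trend, and a call at a Benjamini-Hochberg adjusted p under 0.05. The fit was tested on simulated data in which the changed genes were known. The median over the negative control features of an array served as its background level, and precision is limited by having 3 arrays a group.

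All members are named. Of the other complement genes, up to 4 called in each of 6 lists are named by largest change. Cfp, C2, Hc, Itgam, Itgax, Itgb2 and Vsig4 are named whatever their values. The text gives a few more outside this rule that were chosen after their values were seen (C1ra, C1rb, C5ar2, C1qbp). Cfd and C3 were not analysed here. The members and lists were chosen with earlier results of these data known. Replicate numbers are in the labels, but same-numbered arrays deviated together in part only, and no pairing was used. Of 18 same-numbered pairs 7 had r over 0.1, and r ranged from -0.51 to 0.66. Of the 12 arrays 7 correlated best with their own number. Alternatives tried were no filter, a 60th percentile filter, quantile normalization, median centring, averaging a gene's clusters, robust estimation with a variance trend, a block for the replicate number, covariates for control features and adipocyte markers, the 6 arrays compared alone, and leaving out each array.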

Additional observations from a re-analysis of the deposited data

Results flagged for a closer look

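Clusterin, collectin, C7, ficolin and integrin genes had changes that differed between days of infusion by limma's test of the difference itself, adjusted over all genes tested in each comparison. Clu was higher at day 7 than at day 3 by 2.20 log2 units (limma adjusted p = 0.0227) and than at day 1 by 1.88 (adjusted p = 0.0187). Its means of 3 arrays were 9.77, 9.45 and 11.65 on days 1, 3 and 7. C7 at day 7 differed from day 1 by -3.94 (adjusted p = 0.0391), with means of 10.38 at day 7 and 14.32 at day 1. Colec12 at day 7 differed from day 1 by -1.40 (adjusted p = 0.0228), and Fcna by -0.50 (adjusted p = 0.0469). Itgax was 0.60 higher at day 7 than at day 1 (adjusted p = 0.0179), with 1 of 3 arrays at day 7 and 3 of 3 at day 1 under the negative control median, and Colec10, under the negative control median on every array, was also 0.60 higher (adjusted p = 0.0415). None of these differences changed sign in the alternatives. The call of Clu held in 16 of 22 against day 3 and 20 of 22 against day 1, that of C7 in 12 of 22, Colec12 in 17 of 22, Fcna in 8 of 22, Itgax in 15 of 21 and Colec10 in 6 of 21.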

How the results depend on the processing

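Of 525 values of a member under an alternative, 3 changed sign against day 0, all of Serping1, which was not called: -0.21 at day 3 under quantile normalization, and 0.53 at day 7 with the control-feature covariate and at day 7 -0.69 to 0.090 with an array of day 7 left out, above 0 only without replicate 1. The cause was not tested. Members called at day 1 (2) were 1 with the replicate block, 1 with the control-feature covariate, 0 with the adipocyte covariate, 1 with the 6 arrays compared only and 0 to 4 with an array left out (4 without day 7 replicate 1 or 2, and 0 without any 1 of the day 0 arrays, day 1 replicate 1 or 2, or day 3 replicate 2 or 3). At day 3 (4) they were 1 with median centring, 0 with either covariate, 7 with the 6 arrays only and 0 to 7 with an array left out (0 without day 0 replicate 2 or day 3 replicate 2 or 3, 1 without day 0 replicate 1 or 3, and 7 without day 7 replicate 1). At day 7 (7) they were 2 with the control-feature covariate, 5 with the adipocyte covariate, 3 with the 6 arrays only and 4 to 7 with an array left out. The replicate block lost the calls of C1qb at day 1 and C1qa at day 3 (adjusted p = 0.0578 and 0.0526) and gained C4b at day 3 (adjusted p = 0.0306), and gave 4 members at day 3 and 7 at day 7. Its numbers are shared by label only, 7 of 12 arrays correlated best with their own number, and all genes called were 822, 2793 and 5801 with the block against 799, 2583 and 5590 without it.

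Other complement genes called at day 1 (7) were 0 with the adipocyte covariate, 4 with the 6 arrays only and 0 to 8 with an array left out. At day 3 (11) they were 7 with centring, 3 with the control-feature covariate, 0 with the adipocyte covariate and 6 to 13 with an array left out, and at day 7 (15) 6 with the control-feature covariate and 13 to 19. Between infused days the members called were 0 in every alternative for day 3 against day 1 and day 7 against day 3, and 0 to 1 with an array left out for day 7 against day 1 (1 without day 7 replicate 1). All genes called were 1008, 466 and 776 at days 1, 3 and 7 with the control-feature covariate, 0, 13 and 2837 with the adipocyte covariate and 216, 4531 and 2729 with the 6 arrays only. Quantile normalization shifted the median change of all genes by -0.02, -0.12 and -0.21, and centring by -0.04, -0.19 and -0.29. C5ar1, C5ar2, Colec10, Itgax and Vsig4 lay near or under the arrays' negative control median on most arrays. C3ar1, Fcna and Itgb2 lay near it at day 0, and C1qa, C1qc and Itgam little above it. Signal over background limits what can be measured there.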

Other observations

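The day 7 arrays differed among themselves more than those of other days in the complement members, a pattern noticed after the values were seen. In 8 of 8 members the SD of the 3 arrays was largest at day 7, against 46.5% of all 22111 tested genes. The SD of C4b on days 0, 1, 3 and 7 was 0.45, 0.64, 0.14 and 1.32 log2 units, and that of Cfb was 0.19, 0.28, 0.27 and 1.37. Day 7 replicate 2 was the highest day 7 array in 7 of 8 members, against 32.2% of tested genes, and day 7 replicate 1 the lowest in 6 of 8, against 38% of tested genes. Smooth muscle markers on these arrays lay below their day 0 mean by more on replicate 2 (difference -5.52) than on replicates 1 and 3 (-4.27 and -2.82). All genes of an array are read from the same RNA, and the source of the spread was not tested.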
